A study of Mus musculus with 12 samples.

Results

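The genes described here are Gpnmb, Lgals3, Mmp12, Trem2, Cd9, Cd63, Spp1, Lpl, Itgax and Tyrobp, which are known as a set from lipid-associated and scar-associated macrophages. They were matched to the arrays by gene symbol, and where several probe sets carried a symbol the brightest on average across the 12 arrays was taken. A probe set was found for 8 of the 10 genes, among 18193 genes measured in all, while Cd63 and Spp1 matched no probe set by symbol and were not analysed here. The set was selected on a readout of these same data, because Gpnmb, Lgals3 and Mmp12 lay more than 20-fold higher in CCl4-treated livers with the control virus than in livers that received oil with that virus. That comparison is therefore given as a description, without a test.

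Macrophages that gather in scarred tissue and around dying, lipid-rich cells take up debris and lipid and switch on a shared programme. TREM2 is a lipid-sensing receptor on their surface, TYROBP (DAP12) is the adaptor that carries its signal into the cell, and GPNMB, galectin-3, the tetraspanins CD9 and CD63 and osteopontin (Spp1) are among the products by which such cells are recognised. In fibrotic liver they lie along the fibrous septa, apart from the resident Kupffer cells of the sinusoids.

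Total RNA of whole liver from male Balb/c mice was hybridized to 12 expression arrays, 3 in each of 4 groups. The shLFAR1+CCl4 mice received CCl4, a hepatotoxin that causes fibrosis, and a lentivirus with a short hairpin RNA against the long noncoding RNA lnc-LFAR1. The NC+CCl4 mice received CCl4 and the control lentivirus Lenti-NC, the shLFAR1 mice received olive oil and the hairpin virus, and the NC mice received olive oil and the control virus. CCl4 was given intraperitoneally as a 5% solution (v/v) in olive oil at 0.3 ml/kg, 3 times per week, and the virus was injected into a tail vein once 2 weeks of dosing had passed, with 4 further weeks of dosing. Mice were 8 weeks old when obtained, and each group held 10 animals, of which 3 livers were arrayed. All mice thus received a lentivirus, and no group without one was measured. No probe set named for lnc-LFAR1 was analysed here, so the knockdown was not checked on these arrays. The hepatocyte product Alb, at 14.3 to 14.5 log2 units on every array, fitted the label of liver. In bulk tissue, fewer macrophages and less RNA per macrophage cannot be told apart.

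One array of the shLFAR1+CCl4 group stood apart from the other 2. On the first principal component, which held 56.3% of the variance, replicates 1 and 2 of this group lay at -6.80 and -9.66 and replicate 3 at 39.2, while the NC+CCl4 arrays lay between 34.8 and 48.8 and the 6 oil arrays between -26.7 and -20.4. The 8 genes are therefore given array by array, and the tests that use this group also without replicate 3. In NC+CCl4 replicate 1 the 3′ probe set of the beta-actin gene exceeded the 5′ one by 1.31 log2 units, against 0.70 to 1.07 on the other 11 arrays, which is a measure of RNA or labelling quality. For Gapdh this array stood further apart, with 0.72 against -0.21 to 0.03 on the other 11 arrays. Array means ran from 5.102 to 5.108 log2 units.

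Promoter sequences were available in RefSeq (mouse build GRCm38.p6) for 8 of the 10 genes, Gpnmb, Lgals3, Mmp12, Trem2, Cd9, Cd63, Spp1 and Itgax, in 10 entries, since Mmp12 and Spp1 have 2 annotated starts each. Each entry spans 250 bases before to 50 bases after the start. The letters TGANTCA, to which AP-1 factors are known to bind, were found in 4 of the 10 entries, 1 each of Gpnmb, Mmp12, Trem2 and Itgax, and in 7.81% of 32851 mouse promoters. These 4 are shown, 5′ to 3′, because the genes cover the lipid receptor Trem2, the integrin Itgax and 2 of the 3 genes of the set with over 20-fold differences, and they were chosen after the matches were seen. Capitals mark the AP-1 letters.
Gpnmb, chr6:49036268-49036567, plus strand: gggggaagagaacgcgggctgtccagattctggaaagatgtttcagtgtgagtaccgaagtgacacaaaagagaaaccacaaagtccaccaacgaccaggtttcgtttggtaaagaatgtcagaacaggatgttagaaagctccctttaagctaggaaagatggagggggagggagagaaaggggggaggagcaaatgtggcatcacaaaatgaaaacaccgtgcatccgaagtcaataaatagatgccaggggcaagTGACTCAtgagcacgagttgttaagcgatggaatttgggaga
Mmp12, chr9:7347124-7347423, plus strand: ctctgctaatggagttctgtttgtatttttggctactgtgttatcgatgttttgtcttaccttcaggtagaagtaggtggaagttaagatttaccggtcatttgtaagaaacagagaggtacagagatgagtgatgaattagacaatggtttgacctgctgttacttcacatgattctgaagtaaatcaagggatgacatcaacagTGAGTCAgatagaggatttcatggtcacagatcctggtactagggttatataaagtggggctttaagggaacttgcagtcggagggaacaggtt
Trem2, chr17:48346151-48346450, plus strand: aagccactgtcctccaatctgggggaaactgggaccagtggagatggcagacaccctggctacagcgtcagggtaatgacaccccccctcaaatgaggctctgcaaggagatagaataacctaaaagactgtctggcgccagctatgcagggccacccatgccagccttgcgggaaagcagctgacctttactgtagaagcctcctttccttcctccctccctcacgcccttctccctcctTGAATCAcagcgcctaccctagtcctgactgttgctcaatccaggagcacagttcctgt
Itgax, chr7:128129300-128129599, plus strand: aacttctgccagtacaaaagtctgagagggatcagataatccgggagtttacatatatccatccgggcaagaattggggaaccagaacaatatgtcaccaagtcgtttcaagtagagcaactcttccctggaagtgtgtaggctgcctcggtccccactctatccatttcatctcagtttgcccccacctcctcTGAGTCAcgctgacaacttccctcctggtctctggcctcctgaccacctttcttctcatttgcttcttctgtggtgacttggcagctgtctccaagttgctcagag
The AP-1 letters began 8 bases after the start of Gpnmb, 44 bases before the second annotated start of Mmp12, 9 bases before the start of Trem2 and 56 bases before that of Itgax. They read TGACTCA in Gpnmb, TGAATCA in Trem2 and TGAGTCA in both Mmp12 and Itgax. The match is a description of the letters in this window and not of a bound site. Both strands were searched for 3 further sets of letters. GAGGAA, part of the motif of the myeloid factor PU.1, stood in 4 entries (Mmp12 at its first start, Trem2, Cd63 and Spp1 at its first start) and in 28.3% of all promoters. AGGTCA, the core letters bound by nuclear receptors, stood in 2 entries (Mmp12 at its second start and Trem2) and in 16.3% of all, and the E-box CACGTG in 0 entries and 7.15% of all. None of these matches overlapped the AP-1 letters.

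The 3 genes that defined the selection come first. Gpnmb, a membrane glycoprotein of phagocytic and lysosome-rich macrophages, measured 6.15, 6.23 and 10.65 log2 units in shLFAR1+CCl4 livers (replicates 1 to 3) and 8.96, 10.15 and 9.67 in NC+CCl4 livers. It measured 4.63, 4.43 and 4.61 in shLFAR1 livers and 4.36, 4.44 and 4.80 in NC livers. The knockdown livers with CCl4 thus held both the highest Gpnmb value of all arrays and 2 values far below every NC+CCl4 liver, though above every oil liver.

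Lgals3, the galactose-binding lectin galectin-3, which macrophages secrete and which is used as a marker of recruited macrophages, measured 7.31, 7.24 and 11.27 log2 units in shLFAR1+CCl4 livers and 9.77, 10.89 and 9.56 in NC+CCl4 livers. The values were 4.96, 5.77 and 5.38 in shLFAR1 livers and 4.98, 5.16 and 5.74 in NC livers. As with Gpnmb, replicate 3 of shLFAR1+CCl4 was the highest of all arrays and the other 2 lay between the oil and the NC+CCl4 ranges.

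Mmp12, the macrophage elastase, which cleaves elastin in scar matrix, measured 5.45, 4.97 and 9.49 log2 units in shLFAR1+CCl4 livers and 7.78, 9.67 and 7.76 in NC+CCl4 livers. It measured 4.13, 3.97 and 3.73 in shLFAR1 livers and 3.77, 3.86 and 4.19 in NC livers. Here NC+CCl4 replicate 2 was above shLFAR1+CCl4 replicate 3, and the other 2 NC+CCl4 livers were below that array.

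Relative to the mean of the shLFAR1 livers, Gpnmb was 3.03-fold, 3.19-fold and 68.1-fold higher in the 3 shLFAR1+CCl4 livers. Lgals3 was 3.86-fold, 3.66-fold and 59.8-fold higher, and Mmp12 2.84-fold, 2.04-fold and 46.8-fold. Relative to the NC mean, the 3 NC+CCl4 livers stood at 21.6-fold, 49.0-fold and 35.0-fold for Gpnmb, at 22.3-fold, 48.3-fold and 19.3-fold for Lgals3, and at 14.3-fold, 53.3-fold and 14.2-fold for Mmp12. Replicate 3 of the knockdown group thus exceeded every NC+CCl4 liver in Gpnmb and Lgals3, and the other 2 knockdown livers were below 4-fold in all 3 genes.

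**Figure D1:**
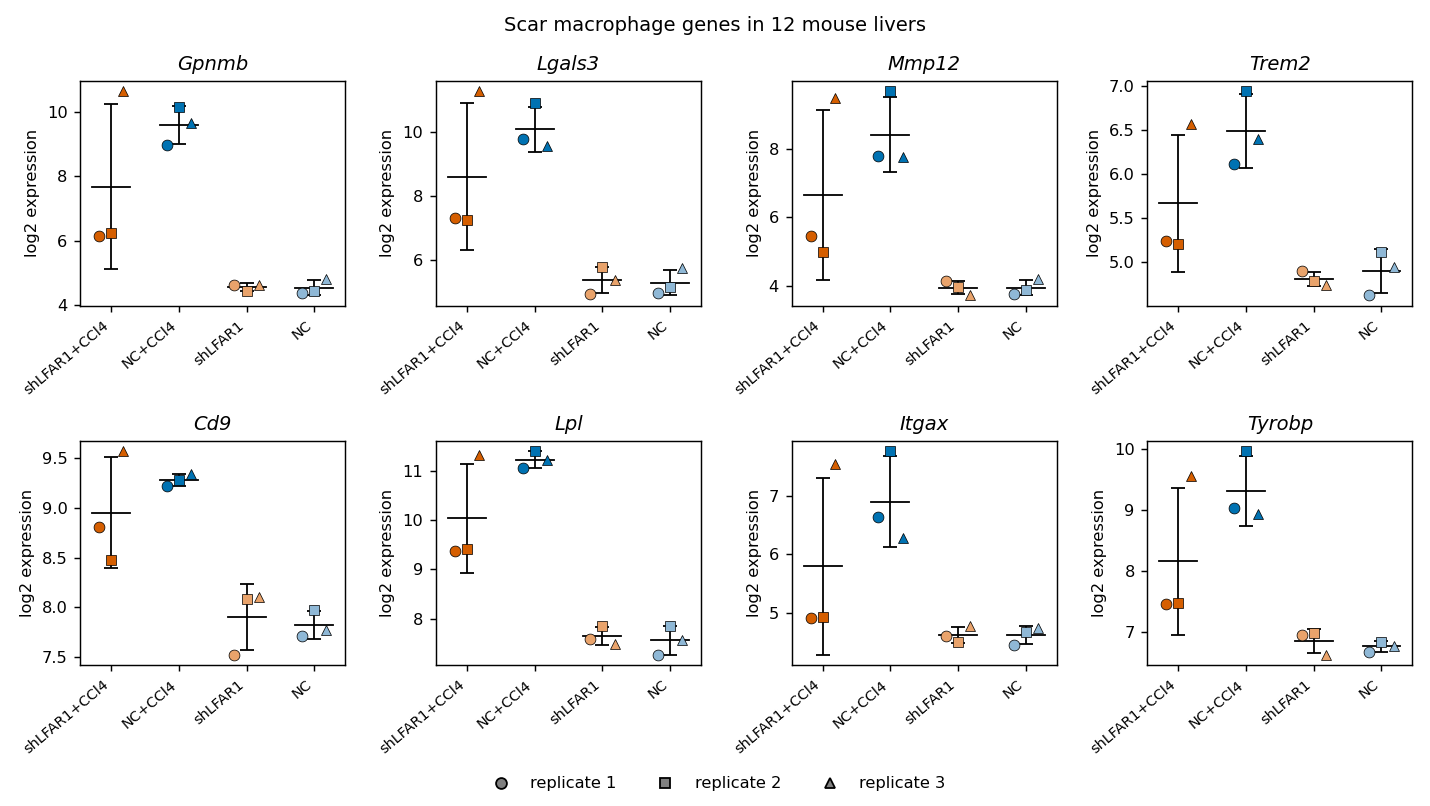
Level of each of the 8 genes on every array (log2 expression on the vertical axis, 1 panel per gene with its own scale), by group, with the group mean (wide line) and SD (error bar, n = 3); the shape of a point gives the replicate number. Replicate 3 of shLFAR1+CCl4 (triangle) is at the height of the NC+CCl4 livers or above in every panel, and replicates 1 and 2 lie below the NC+CCl4 range, for Gpnmb at 6.15 and 6.23 against 8.96 to 10.15.

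Among the receptors, Trem2 measured 5.23, 5.20 and 6.56 log2 units in shLFAR1+CCl4 livers and 6.11, 6.94 and 6.39 in NC+CCl4 livers. Oil livers lay between 4.74 and 4.90 with the hairpin virus and between 4.62 and 5.11 with the control virus, so that the 2 lower knockdown livers stood only 1.35-fold and 1.32-fold above their oil mean. A second Trem2 probe set did not follow this pattern, with 4.72 to 4.96 in shLFAR1+CCl4, 4.78 to 4.98 in NC+CCl4, 4.89 to 4.93 in shLFAR1 and 4.91 to 5.37 in NC livers, and the Trem2 values rest on 1 of its 2 probe sets.

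Tyrobp, the adaptor through which TREM2 and several other myeloid receptors signal, measured 7.46, 7.47 and 9.55 log2 units in shLFAR1+CCl4 livers and 9.04, 9.97 and 8.93 in NC+CCl4 livers. It measured 6.95, 6.98 and 6.62 in shLFAR1 livers and 6.67, 6.84 and 6.78 in NC livers. The split among the knockdown livers was the same as that of Trem2, with replicates 1 and 2 close to each other and to the oil livers.

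Itgax, the integrin alpha chain CD11c of dendritic cells and activated macrophages, measured 4.91, 4.92 and 7.53 log2 units in shLFAR1+CCl4 livers and 6.64, 7.77 and 6.27 in NC+CCl4 livers. It lay between 4.49 and 4.77 in shLFAR1 livers and between 4.44 and 4.74 in NC livers. Replicates 1 and 2 of the knockdown group were each 1.23-fold above their oil mean and replicate 3 was 7.55-fold above it, which is the widest relative split among the receptors and adaptors of the set.

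Cd9, a tetraspanin that organises membrane proteins and is also made by other liver cells, had the narrowest span. It measured 8.80, 8.48 and 9.57 log2 units in shLFAR1+CCl4 livers and 9.22, 9.28 and 9.34 in NC+CCl4 livers, against 7.52, 8.08 and 8.11 in shLFAR1 livers and 7.72, 7.98 and 7.77 in NC livers. The NC+CCl4 livers had an SD of 0.06 log2 units (n = 3), and the knockdown livers lay on both sides of them.

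Lpl, lipoprotein lipase, releases fatty acids from the triglycerides of lipoproteins and is low in adult hepatocytes. It measured 9.37, 9.41 and 11.32 log2 units in shLFAR1+CCl4 livers and 11.06, 11.41 and 11.22 in NC+CCl4 livers, against 7.59, 7.85 and 7.49 in shLFAR1 livers and 7.27, 7.85 and 7.56 in NC livers. A second probe set also set replicates 1 and 2 of the knockdown group between the oil and the NC+CCl4 livers, with 6.93, 6.82 and 8.88 in shLFAR1+CCl4, 8.65, 9.19 and 8.93 in NC+CCl4, 4.82 to 5.08 in shLFAR1 and 4.70 to 5.38 in NC livers. Replicates 1 and 2 of the knockdown group were still 3.31-fold and 3.40-fold above their oil mean, and replicate 3 was 12.8-fold above it, against 11.3-fold to 14.4-fold in the NC+CCl4 livers.

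Across the set, every CCl4 liver of either virus was above every one of the 6 oil livers in 8 of 8 genes, as it was in 3.22% of all genes, and this count includes the arrays that selected the set. Replicate 3 was the highest shLFAR1+CCl4 liver in 8 of 8 genes. Replicate 2 was the highest NC+CCl4 liver in 7 of 8, with Cd9 as the exception. The second Gpnmb probe set was dim, between 2.41 and 3.92 on all arrays.

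The response to CCl4 under the hairpin virus, shLFAR1+CCl4 against shLFAR1, takes its log2 changes from none of the arrays on which the genes were selected, and all 8 genes were tested in it. The standard errors and p rest on a spread pooled over all 12 arrays, and with only the 6 arrays compared Lpl, the only gene to pass, had limma adjusted p = 0.139. Lpl rose 5.24-fold, by 2.39 ± 0.39 log2 units (SE, 3 arrays a group, 95% interval 1.53 to 3.24, limma adjusted p = 0.0192). None of the other 7 genes passed, and 0.324% of all genes were called higher in this comparison. The log2 changes of the others were positive and did not pass in limma after Benjamini-Hochberg adjustment over all genes. Lgals3 had 3.24 ± 0.82 (adjusted p = 0.131), Gpnmb 3.12 ± 0.87 (adjusted p = 0.183) and Mmp12 2.69 ± 0.90 (adjusted p = 0.275). These 3 had larger changes than Lpl and also larger standard errors. Cd9 had 1.05 ± 0.23 (adjusted p = 0.0854) and Tyrobp 1.31 ± 0.45 (adjusted p = 0.294). Trem2 had 0.86 ± 0.32 (adjusted p = 0.332), and Itgax 1.17 ± 0.57 (adjusted p = 0.485) with an interval from -0.06 to 2.41. The unadjusted p was under 0.05 in 7 of the 8 and in 1960 of all 18193 genes.

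Counted by overlap, all shLFAR1+CCl4 arrays lay above all shLFAR1 arrays in 8 of 8 genes, a pattern that 8.41% of all genes showed. The median log2 change of the 8 genes was 1.85, against -0.03 over all genes, and without replicate 3 of shLFAR1+CCl4 it was 1.00, against -0.01. Without replicate 3 of shLFAR1+CCl4, 3 of the 8 genes passed, where 0.363% of all genes were called higher. Lpl then had a log2 change of 1.75 ± 0.17 (adjusted p = 0.000682), Gpnmb 1.64 ± 0.26 (adjusted p = 0.0160) and Lgals3 1.91 ± 0.35 (adjusted p = 0.0386). The call of Lpl also depended on the oil arrays, with adjusted p = 0.100, 0.0589 and 0.106 when shLFAR1 replicate 1, 2 or 3 was left out.

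Whether the hairpin virus altered these genes during CCl4 injury is the question of shLFAR1+CCl4 against NC+CCl4. Gpnmb, Lgals3 and Mmp12 were selected partly on the NC+CCl4 arrays and are described here without a test, with log2 differences of -1.92, -1.47 and -1.77. Of the other 5 genes, 0 passed in limma, with an unadjusted p under 0.05 in 3 of them, and the methods' t-test after Benjamini-Hochberg passed 0 as well, while 0.115% of all genes were called lower. Over all 18193 genes, 2579 had an unadjusted p under 0.05 in limma. Lpl had a log2 difference of -1.20 ± 0.39 (95% interval -2.05 to -0.34, adjusted p = 0.188) and Tyrobp one of -1.15 ± 0.45 (-2.13 to -0.17, adjusted p = 0.270). Trem2, with the probe set chosen through the CCl4 arrays, had -0.82 ± 0.32 (-1.50 to -0.13, adjusted p = 0.266). Itgax had -1.11 ± 0.57 (-2.34 to 0.13, adjusted p = 0.416). Cd9 was nearest to no difference, at -0.33 ± 0.23 (-0.84 to 0.18, adjusted p = 0.588). The median of these 5 differences was -1.11 (-1.84 without replicate 3 of shLFAR1+CCl4), against 0.01 over all genes. The arrays of the groups overlapped in each of the 8 genes, so that 0 of 8 genes, against 5.11% of all genes, had every shLFAR1+CCl4 array below every NC+CCl4 array.

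Replicate 3 of shLFAR1+CCl4 decided this comparison. It was singled out on these same data for lying among the NC+CCl4 arrays, so leaving it out favours a difference from them. Without it, with only replicates 1 and 2 of the group left, all 5 tested genes passed as lower in shLFAR1+CCl4 than in NC+CCl4. Over all genes 4.9% were then called lower. The log2 differences were then -1.84 ± 0.17 for Lpl (limma adjusted p = 8.49e-05), -1.98 ± 0.32 for Itgax (adjusted p = 0.00283) and -1.85 ± 0.25 for Tyrobp (adjusted p = 0.000995). Trem2 had -1.27 ± 0.21 (adjusted p = 0.00383) and Cd9 -0.64 ± 0.17 (adjusted p = 0.0455). The call of Trem2 rests on a probe set that was brightest only through the CCl4 arrays, so it is not independent support. The described values of Gpnmb, Lgals3 and Mmp12 were -3.40, -2.80 and -3.20 without that array. Nothing in the labels sets this liver apart from the others of its group, and the lnc-LFAR1 level in it was not analysed here.

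Without CCl4 the differences between the viruses were small. The log2 differences of shLFAR1 against NC lay between -0.09 and 0.09 in the 8 genes. In limma, 0 of the 5 tested genes passed and 0 had an unadjusted p under 0.05. Over all genes 0% were called, and 504 genes had an unadjusted p under 0.05. The 95% intervals were -0.42 to 0.59 for Cd9, -0.77 to 0.60 for Trem2, -0.77 to 0.94 for Lpl, -0.89 to 1.07 for Tyrobp and -1.24 to 1.23 for Itgax. This model with 3 arrays per group did not exclude differences within those bounds. Its spread is pooled over all 4 groups and is wider than that of the oil livers. For Itgax the SD was 0.14 in shLFAR1 and 0.16 in NC, against 1.51 in shLFAR1+CCl4.

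In the comparison on which the set was selected, NC+CCl4 against NC, the values are a description. Over all genes, 9 lay more than 20-fold higher, 3 of them in the set. Gpnmb lay 33.3-fold higher, Lgals3 27.5-fold and Mmp12 22.1-fold, and the last of these was the nearest of the set above the bound of 20-fold. The nearest of the set below it was Lpl at 12.7-fold, followed by Tyrobp at 5.85-fold, Itgax at 4.84-fold, Trem2 at 3.01-fold and Cd9 at 2.75-fold. All NC+CCl4 arrays lay above all NC arrays in 8 of 8 genes and in 13.8% of all genes, and 7.66% of all genes were called higher. The median log2 difference was 3.11 for the 8 genes and -0.05 over all genes.

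The 2 CCl4 responses share no array and can be set side by side, but the difference between them was not tested, since 1 of them selected the genes. The log2 change under the hairpin virus was between 0.513 (Tyrobp) and 0.718 (Cd9) of that under the control virus, with a median of 0.610. Over the 1393 genes called higher in NC+CCl4 against NC the median of this ratio was 0.407. Without replicate 3 of shLFAR1+CCl4 the ratios of the 8 genes lay between 0.131 (Itgax) and 0.505 (Cd9), with a median of 0.304, and the median over the 1393 genes was 0.204. Both medians are taken over genes chosen for a high denominator, and the ratios of the 8 genes average livers that were far apart.

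**Figure D2:**
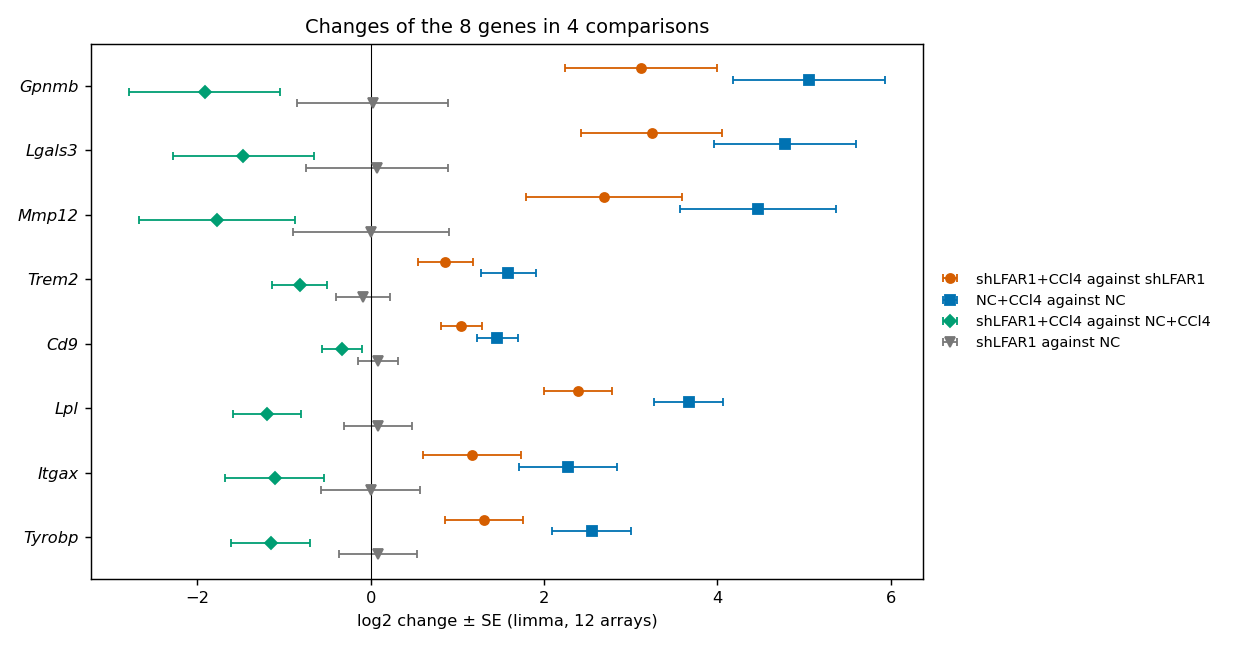
Log2 change of the 8 genes in each comparison (horizontal axis, log2 units; points are limma estimates from 12 arrays and bars are SE). The CCl4 responses lie right of 0, from 0.86 to 3.24 under the hairpin virus and from 1.46 to 5.06 under the control virus, shLFAR1+CCl4 against NC+CCl4 lies left of 0, and shLFAR1 against NC lies within 0.09 of it.

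The wider programme of these macrophages was followed in a list of 30 further genes, of which 28 were measured. In NC+CCl4 against NC, 16 were called higher and 2 lower, where 7.66% and 5.41% of all genes were called in those directions. The most changed were Clec7a, the beta-glucan receptor dectin-1, at 4.12 log2 units, and the lysosomal protease Ctss (cathepsin S) at 3.36. In shLFAR1+CCl4 against shLFAR1 only Ctss passed (2.19 ± 0.40, limma adjusted p = 0.0312), while Clec7a had 2.41 ± 0.52 (adjusted p = 0.0754). Without replicate 3 of shLFAR1+CCl4 both passed, Ctss at 1.596 ± 0.233 (adjusted p = 0.00807) and Clec7a at 1.58 ± 0.24 (adjusted p = 0.0115). In shLFAR1+CCl4 against NC+CCl4, 0 of 28 passed in limma, and 9 had an unadjusted p under 0.05, as did 2579 of all 18193 genes. Without shLFAR1+CCl4 replicate 3, 14 of the 28 were called lower, where 4.9% of all genes were.

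Partners of single members were counted in the same way, where again 7.66% of all genes were called higher and 5.41% lower in NC+CCl4 against NC. Of 16 genes for TREM2 and TYROBP signalling, 5 were called higher and 0 lower in NC+CCl4 against NC, led by the activating receptor Cd300lb at 2.34 and the adaptor Fcer1g at 2.01 log2 units. Of 8 measured partners of lipoprotein lipase, its cofactor Apoc2 was called higher, by 0.83 log2 units, and its inhibitor Angptl4 and its maturation factor Lmf1 were called lower, at -0.87 and -0.78. Lmf1 is named after its values were seen. The partners of the lipase were thus called in both directions.

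Of 9 receptors of osteopontin, 7 were called higher and 0 lower, where 7.66% and 5.41% of all genes were. They were led by the hyaluronan receptor Cd44 at 2.89 and the integrin chain Itga8 at 2.04 log2 units. Itga8 also rose under the hairpin virus, by 1.64 ± 0.27 (limma adjusted p = 0.0217), and it is known from stellate cells and myofibroblasts rather than from macrophages. Without replicate 3 of shLFAR1+CCl4 Itga8 no longer passed, at 1.45 ± 0.29 (adjusted p = 0.0552). Cd44 had 1.76 ± 0.48 under the hairpin virus (adjusted p = 0.161), and 1.02 ± 0.25 without that array (adjusted p = 0.152).

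Other galectins and tetraspanins were more mixed, and their counts stand beside the 7.66% of all genes called higher and 5.41% called lower. Besides Lgals3, the galectin list held 8 measured genes, among them Lgals3bp, which codes for a galectin-3 binding protein and not for a galectin. Of these, 2 were called higher in NC+CCl4 against NC, Lgals1 at 3.73 and Lgals3bp at 1.36 log2 units. The cytosolic galectin gene Lgals8, named after its values were seen, was called lower at -0.50. Of 16 measured tetraspanins other than Cd9, 5 were called higher, led by the leukocyte tetraspanin Cd53 at 2.10 and Tspan4 at 1.24 log2 units, and 3 lower. Of 3 measured beta2 integrin chains that pair with or resemble Itgax, 2 were called higher, the shared beta chain Itgb2 at 3.04 and the alpha chain Itgal at 1.81.

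For shLFAR1+CCl4 against NC+CCl4, 0 of the 60 measured partner genes passed in limma, and 23 had an unadjusted p under 0.05, of which 19 were lower. Over all 18193 genes, 2579 had an unadjusted p under 0.05 in this comparison. Without shLFAR1+CCl4 replicate 3, 3 TREM2 and TYROBP signalling genes, 1 lipoprotein lipase partner, 4 osteopontin receptors, 2 genes of the galectin list, 3 tetraspanins and 2 beta2 integrins were called lower. Over all genes 4.9% were called lower in that setting. In the other direction 1 gene of the galectin list was called higher, where 2.4% of all genes were.

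Markers of the cell types a liver can hold were read beside the 8 genes. The median height of the 8 genes above the oil livers with the same virus was 1.20, 0.82 and 3.30 log2 units in the 3 shLFAR1+CCl4 livers, against 2.89, 3.53 and 2.91 in the NC+CCl4 livers. For 13 measured pan-macrophage markers it was 0.67, 0.62 and 1.81 log2 units in shLFAR1+CCl4, against 1.75, 2.74 and 1.73 in NC+CCl4. The macrophage markers thus had the same order of livers within the hairpin group and the same highest liver, replicate 2, in the control group. Of these 13 genes 12 were called higher and 0 lower in NC+CCl4 against NC, where 7.66% and 5.41% of all genes were. They were led by lysozyme (Lyz2) at 3.94 and the lysosomal protein gene Laptm5 at 3.20 log2 units. In shLFAR1+CCl4 against NC+CCl4, 0 passed in limma and 11 had an unadjusted p under 0.05, as did 2579 of all 18193 genes. Without shLFAR1+CCl4 replicate 3, 11 were called lower, where 4.9% of all genes were.

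The resident macrophages of the liver showed another pattern. The 12 Kupffer cell markers had median heights of 0.20, 0.00 and -0.04 log2 units in shLFAR1+CCl4 livers, against 0.29, 0.22 and -0.15 in NC+CCl4 livers. In NC+CCl4 against NC, 2 of them were called higher and 3 lower, where 7.66% and 5.41% of all genes were. The haptoglobin-haemoglobin receptor gene Cd163 (-1.58) and the complement gene C6 (-1.12) differed most. The 2 called higher were Il18bp at 0.83 and Cd5l at 0.77, both outside the naming rule. The unadjusted p was under 0.05 in 6 of the 12, so the medians near 0 join changes in both directions. The defining Kupffer marker Clec4f, outside the naming rule, lay at 8.08 to 8.62 log2 units in shLFAR1+CCl4, 7.52 to 9.02 in NC+CCl4, 8.22 to 8.32 in shLFAR1 and 8.15 to 8.36 in NC livers.

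Dendritic cells also make Itgax, and their 8 measured markers had median heights of 0.00, 0.10 and -0.15 log2 units in shLFAR1+CCl4 against 0.02, 0.11 and 0.04 in NC+CCl4, with 0 called in limma in any comparison and 0 at an unadjusted p under 0.05 in both comparisons of shLFAR1+CCl4. Some of these markers were dim, such as Ccr7 at 3.69 to 3.95 and Itgae at 3.69 to 4.02, below the array medians of 4.42 to 4.50. Such values can include background, so a change in them could be missed. Cholangiocytes make osteopontin, and their 8 measured markers reached 0.05, 0.13 and -0.11 in shLFAR1+CCl4 against 0.24, 0.30 and 0.19 in NC+CCl4, also with 0 called, and with 1 at an unadjusted p under 0.05 in shLFAR1+CCl4 against shLFAR1. The 10 markers of stellate cells, the source of fibrillar collagen, also put replicate 3 above the other 2 knockdown livers. They had median heights of 0.19, 0.35 and 1.21 log2 units in shLFAR1+CCl4 against 0.99, 1.26 and 1.24 in NC+CCl4. In NC+CCl4 against NC 6 were called higher and 1 lower, where 7.66% and 5.41% of all genes were, led by Col1a1 at 3.81 and Col3a1 at 3.71. Without shLFAR1+CCl4 replicate 3, 7 of the 10 were called lower in shLFAR1+CCl4 than in NC+CCl4, where 4.9% of all genes were. The part of macrophage number in the values of the 8 genes was not tested.

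The neutrophil genes S100a8 and S100a9, subunits of calprotectin, had overlapping ranges in both CCl4 groups. S100a8 measured 6.16 to 7.24 log2 units in shLFAR1+CCl4 livers and 6.49 to 7.31 in NC+CCl4 livers. It rose by 3.42 ± 0.34 log2 units under the hairpin virus (limma adjusted p = 0.000643) and S100a9 by 2.50 ± 0.35 (adjusted p = 0.00734), and the differences of shLFAR1+CCl4 against NC+CCl4 were -0.02 and 0.01. Without replicate 3 of shLFAR1+CCl4 both still passed under the hairpin virus, at 3.73 ± 0.33 (adjusted p = 0.000336) and 2.81 ± 0.34 (adjusted p = 0.00231), and the differences against NC+CCl4 were 0.30 and 0.32. Of 9 measured neutrophil markers these 2 were the ones that passed in shLFAR1+CCl4 against shLFAR1, where 0.324% of all genes were called higher. They do not stand for the list, whose median change there was 0.21. Its median heights were 0.12, 0.33 and 0.24 in shLFAR1+CCl4 livers, against 0.15, 0.13 and 0.53 in NC+CCl4 livers. In NC+CCl4 against NC 3 of the 9 were called higher, where 7.66% of all genes were called higher and 5.41% lower. Of 7 measured lymphocyte markers 2 were called higher in NC+CCl4 against NC, Nkg7 at 0.75 and Cd3g at 0.42. Of 8 measured hepatocyte markers, the gluconeogenic enzyme gene Pck1 was called lower there, at -1.55 log2 units, and of 8 endothelial markers 0 were called in limma.

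**Figure D3:**
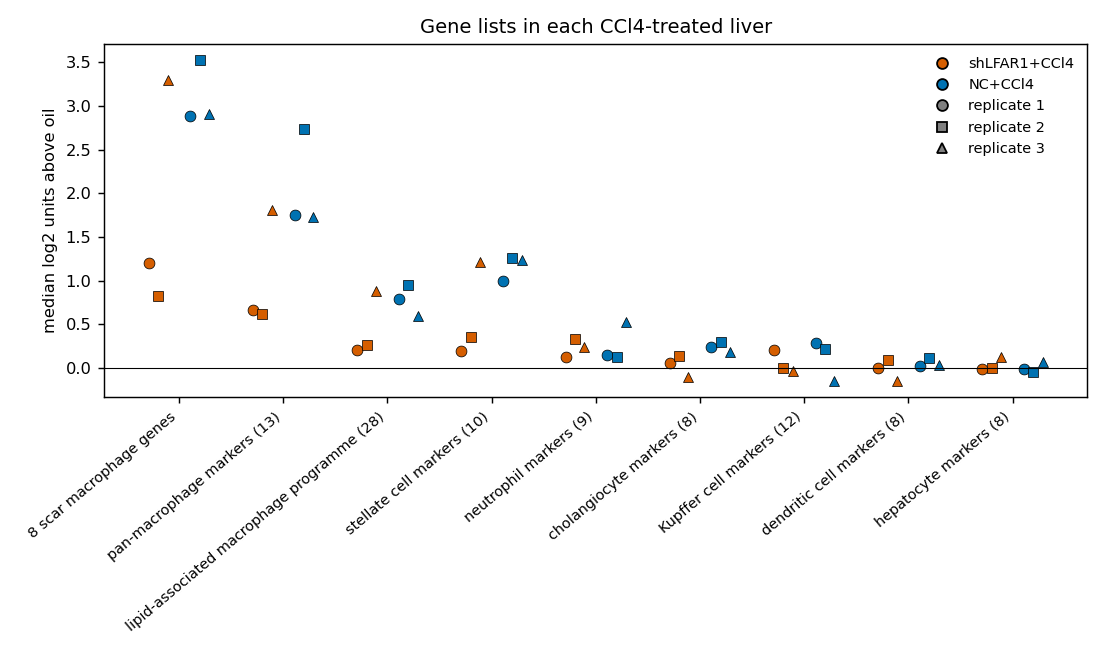
Median height of each gene list above the mean of the oil livers with the same virus (vertical axis, log2 units), for every CCl4 liver; colour gives the group, shape the replicate, and the number of genes stands in brackets. The 8 scar macrophage genes, the pan-macrophage markers and the stellate cell markers split shLFAR1+CCl4 replicate 3 (3.30, 1.81 and 1.21) from replicates 1 and 2, while Kupffer cell and dendritic cell markers stay between -0.15 and 0.29.

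The genes whose pattern was nearest to that of the set were found over all 12 arrays, as the mean absolute difference between profiles of log2 units above the 6 oil livers. Nearest to Gpnmb were Lgals3 (0.261) and Mmp12 (0.323), then Clec7a (0.529), Lyz2 (0.594) and the surface antigen gene Ly6d (0.612). Ly6d parted from the others in the knockdown group, at -0.06, 0.28 and 4.96 log2 units above oil in shLFAR1+CCl4 replicates 1 to 3, against 1.61, 1.69 and 6.10 for Gpnmb. Nearest to the median of the 8 genes were Cd44 (0.108), Laptm5 (0.126), the macrophage lysosomal antigen gene Cd68 (0.190), the phagocyte oxidase subunit gene Cybb (0.213) and Ly6e (0.221). Of these, Cd44 had 1.15, 0.96 and 3.29 log2 units above oil in shLFAR1+CCl4 and 2.66, 3.48 and 2.45 in NC+CCl4. These distances describe 12 arrays that share 4 treatments. Gpnmb, Lgals3 and Mmp12 were selected together for a difference over 20-fold on the NC+CCl4 and NC arrays. The distance depends on the size of the rise, so the nearness of these genes to each other partly follows from the selection.

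**Figure D4:**
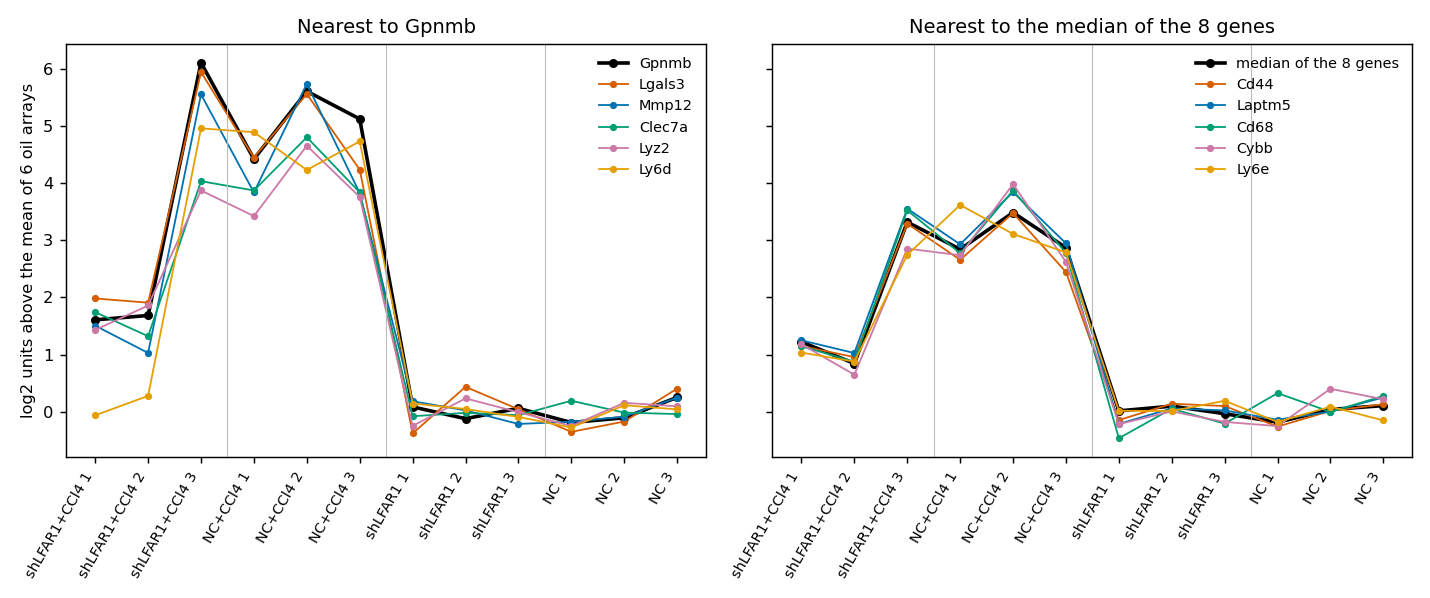
Profiles of the 5 genes nearest to Gpnmb (left) and to the median of the 8 genes (right), as log2 units above the mean of the 6 oil arrays (vertical axis) on each of 12 arrays (horizontal axis, group and replicate; lines join values of 1 gene). The profiles run together at 0 in the oil arrays and separate shLFAR1+CCl4 replicate 3 from replicates 1 and 2, and Ly6d is at -0.06 and 0.28 in replicates 1 and 2.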

How the data were processed

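Values were the log2 expression values deposited by the authors for 12 Affymetrix expression arrays, and the summarization and normalization behind them are not given in the sources used here. They ran from 1.82 to 14.5, and since no detection calls were given, low values can include background. No further normalization, floor or filter was applied. Precision is limited by the number of arrays. Of 45101 probe sets (64 controls), 34945 had 1 gene symbol in the platform annotation, 932 several and 9160 none. Each of 18193 genes was represented by its brightest probe set. All columns were mapped to samples by their labels (0 not mapped), and groups and replicate numbers came from the labels.

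One model with 4 groups was fitted to all 12 arrays with lmFit and eBayes (intensity trend, 8 residual degrees of freedom) in limma 3.58.1 (R 4.3.3). Two-sided p-values were adjusted over all genes with the Benjamini-Hochberg method, and genes under 0.05 after adjustment were called. Errors are SE unless named otherwise, and heights above oil use the mean of the oil arrays with the same virus. The model was first run on simulated data with the same spread in all groups and no array that stood apart. That run therefore does not show how the model behaves with the uneven spread of these arrays. The 10 genes, the partner and marker lists and the tests were chosen with earlier results of these data known. Beside the 10 genes, the rule allowed naming from each list the 2 genes with the largest absolute log2 change in NC+CCl4 against NC, and the 5 genes nearest in pattern. Alb and Clec4f, defining markers, and Lmf1, Lgals8, Il18bp and Cd5l are outside it. Promoters came from RefSeq tables, and motifs were matched in Python 3.11.15.

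Alternatives were no intensity trend, other probe set rules, quantile normalization, only genes above the median level, only the arrays compared, the replicate number as a block, array weights, the methods' t-test and leaving out each array. For the check of pairing, deviations from group means of same-numbered arrays in shLFAR1+CCl4 and NC+CCl4 correlated at 0.126, 0.229 and 0.192. Those of differently numbered arrays were all lower, at -0.234 to 0.093. The same-numbered correlations were weak and do not show that the livers were pairs, and the labels name none. A processing step shared by same-numbered arrays was not tested. In the other tested comparisons the same-numbered correlations were not all positive. Outside the alternatives all tests used the unpaired model, and the replicate number entered only as the block named above.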

Additional observations from a re-analysis of the deposited data

How the results depend on the processing

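For shLFAR1+CCl4 against shLFAR1, the count of the 8 genes called (1) became 0 with only the arrays compared, 3 with array weights (Lpl, Lgals3 and Cd9), 2 with the methods' t-test without adjustment at a fold over 1.6 (Cd9 and Lpl), and 0 with that test after Benjamini-Hochberg. Leaving out 1 array gave 0 to 3, with 0 without any 1 of the shLFAR1 replicates, 2 without shLFAR1+CCl4 replicate 2 and 3 without shLFAR1+CCl4 replicate 3. For shLFAR1+CCl4 against NC+CCl4, the count of the 5 tested genes (0) became 3 with array weights (Trem2, Lpl and Tyrobp) and was 0 to 5 when 1 array was left out, with 5 without shLFAR1+CCl4 replicate 3. For shLFAR1 against NC it was 0 in all alternatives. With the replicate block the counts were 1, 0 and 0, and it changed no call. The median difference of NC+CCl4 against NC (3.11) was 4.07 among genes above the median level, which leave out Trem2 and Itgax, and 2.90 to 3.22 when 1 array was left out. No log2 change reversed. Lpl under the hairpin virus lost its call in 5 of 22 alternatives, with adjusted p from 0.0589 to 0.405. Over all genes, 53 were called in shLFAR1+CCl4 against NC+CCl4, against 919 with array weights, 0 with only the arrays compared, 176 with the methods' t-test without adjustment and 0 after it, and 4 to 1327 when 1 array was left out, with 1327 without shLFAR1+CCl4 replicate 3 and 546 without NC+CCl4 replicate 2. In shLFAR1+CCl4 against shLFAR1, 74 were called, against 375 with array weights, 240 and 0 with the methods' t-test before and after adjustment, and 23 without shLFAR1 replicate 3. In shLFAR1 against NC, 0 were called, against 3 with only the arrays compared and 31 with the unadjusted methods' t-test. In NC+CCl4 against NC, 2378 were called, against 1262 and 280 with the methods' t-test before and after adjustment and 1263 without NC replicate 1. The cause of these shifts was not tested.

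The values have no detection calls, and Gpnmb, Mmp12, Itgax and Trem2 were at 3.73 to 5.11 log2 units in the oil livers, where a value can include background. With 3 arrays in each group and 1 array that stood apart, the spread was uneven: the SD of Gpnmb was 2.57 log2 units in shLFAR1+CCl4, 0.60 in NC+CCl4, 0.11 in shLFAR1 and 0.23 in NC, while the model pools these.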
